A study of Homo sapiens with 6 samples.

Results

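The genes described here are 10 members of the WNT5 and planar polarity pathway: the ligands WNT5A and WNT5B, the receptors ROR1, ROR2, RYK, FZD2 and FZD7, and the core planar polarity genes VANGL1, VANGL2 and PRICKLE1. They were chosen by symbol, with earlier results of these data known, and each matched 1 of the 58735 rows of the count table. RD is an established cell line of embryonal rhabdomyosarcoma, a childhood soft tissue tumour with skeletal muscle features. Cells of this 1 line were transduced with lentiviral particles that carried either a scrambled shRNA (control cultures, n = 3) or an shRNA against TAK1, the MAP kinase kinase kinase encoded by MAP3K7 (TAK1 knockdown cultures, n = 3). Poly(A)-enriched RNA was sequenced in bulk, and the comparison asks which genes differ in mRNA level after silencing of TAK1. Both groups carried the lentiviral backbone, and only shRNA 1 of the study's TAK1 constructs was sequenced, so effects of that construct and of lower TAK1 cannot be told apart. The labels number the replicates without saying whether each came from a separate transduction, so the p-values measure the spread between these samples. In bulk RNA, fewer cells that express a gene and less RNA per cell cannot be told apart either.

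WNT5A and WNT5B are secreted lipid-modified ligands that mostly act without beta-catenin. They bind the receptor tyrosine kinase-like proteins ROR1, ROR2 and RYK together with frizzled receptors, and the signal passes through Dishevelled to small GTPases and the actin cytoskeleton. In planar cell polarity, VANGL and PRICKLE proteins collect on one side of a cell and frizzled proteins on the opposite side, which aligns cells within a tissue and guides directed movement. In muscle, this branch of WNT signaling is known for the orientation of elongating myocytes and for the polarity of dividing satellite cells.

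In TAK1 knockdown cultures, the transcripts of the ligand WNT5A and of the receptor FZD2 were lower by 28.9% and 29.6%. The low-abundance ligand WNT5B was higher by 43.6%, but its call lay near the threshold (edgeR adjusted p = 0.0466). It was lost in 5 of 13 alternative fits. VANGL1 was lower by 15.9% and fell just short of the fold threshold. FZD7, the most abundant of the 10 genes per length, moved by only -2.57%. The remaining members moved by small amounts or were too scarce to be called. Hence, neither the WNT5 pair nor the FZD2 and FZD7 pair was called alike.

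Each of these pairs consists of paralogs, so the sequences that the members share matter for how reads were assigned. Canonical GENCODE 44 transcripts were compared within each pair, and 0 stretches of 75 bases, the length of 1 read, were identical in any pair. The longest identical runs, all within coding sequence, are printed on the coding strand because they are the stretches where reads are hardest to place. In them no letter is capitalised.
FZD2 bases 305 to 373 and FZD7 bases 923 to 991: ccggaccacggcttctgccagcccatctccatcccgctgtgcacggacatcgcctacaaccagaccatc
WNT5A bases 1377 to 1411 and WNT5B bases 1191 to 1225: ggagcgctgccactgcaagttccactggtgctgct
VANGL1 bases 1511 to 1534 and VANGL2 bases 1744 to 1767: catggagagcatcctgcagcacct
The FZD pair shares a run of 69 bases, the WNT5 pair 35 and the VANGL pair 24. The run shared by ROR1 and ROR2 was shorter, at 13 bases.

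WNT5A and WNT5B were called in opposite directions, WNT5B only near the threshold. The 250 bases upstream of 1 start site of each are therefore shown from the RefSeq promoter table (GRCh38.p14). The windows chosen are those that lie outside annotated exons, and which start site RD cells use was not tested. Each is printed in the direction of transcription, with matches to the E-box CANNTG, the motif bound by myogenic factors such as MYOD1, in capitals.
WNT5A, chr3:55481399-55481648, minus strand: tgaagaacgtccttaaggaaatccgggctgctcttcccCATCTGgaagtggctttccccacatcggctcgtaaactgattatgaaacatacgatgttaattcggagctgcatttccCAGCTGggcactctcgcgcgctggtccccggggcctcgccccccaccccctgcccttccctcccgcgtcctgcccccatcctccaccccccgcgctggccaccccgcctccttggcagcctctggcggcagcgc
WNT5B, chr12:1628981-1629230, plus strand: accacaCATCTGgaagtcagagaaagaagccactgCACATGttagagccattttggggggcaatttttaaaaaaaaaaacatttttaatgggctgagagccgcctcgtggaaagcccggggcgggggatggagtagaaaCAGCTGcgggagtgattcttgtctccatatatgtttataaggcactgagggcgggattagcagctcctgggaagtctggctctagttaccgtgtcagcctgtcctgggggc
The WNT5A window holds 2 E-boxes and the WNT5B window 3. In the other window of each gene, which overlaps annotated exons and is not printed, the order was the opposite, with 3 E-boxes for WNT5A and 0 for WNT5B. Of the 10 members, 8 had entries in the table (11 start sites), and FZD2 and FZD7 are named only. On either strand, AP-1 motifs (TGANTCA) and the NF-kB consensus motif were found in 0 of the 11 windows, beside 6.57% and 1.73% of all 35116 promoter windows of the same length. E-boxes were found in 6 of the 11 windows (61.8% of all windows), GC boxes (GGGCGG) in 8 (42.6%) and the TEAD motif GGAATG in 1, that of VANGL1 (11.9%). These are matches of letters only, and the searched motifs did not overlap in the printed windows.

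The targeted gene was checked first. MAP3K7, on chromosome 6, had 77.9, 76.5 and 77.6 CPM (read counts relative to library size, scaled by the trimmed mean of M-values) in the control replicates 1, 2 and 3 and 30.5, 33.6 and 29.9 CPM in the TAK1 knockdown replicates. All knockdown cultures lay below all controls, with a log2 fold change of -1.30 (SE 0.06, edgeR adjusted p = 4.45e-14). Total counts ran from 28839898 to 34469323 per library, and the 6 libraries separated by group on the first principal component. The muscle markers MYOD1, MYOG, DES, PAX7 and CHRNA1 were detected in every library, while MYF5 and MYF6 stayed at or below 0.0318 CPM.

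A gene was called when edgeR gave an adjusted p under 0.05 in the quasi-likelihood test and its absolute log2 fold change was at least 0.25, the study's thresholds. By this rule 23.1% of the 15935 tested genes were called, 11.8% as higher and 11.3% as lower in TAK1 knockdown cultures. Of the 10 members, 9 had enough counts to be tested. Of these, WNT5B was called higher, WNT5A and FZD2 were called lower, and 6 were not called. Without the fold threshold, 2 members were higher (WNT5B, VANGL2) and 3 lower (WNT5A, FZD2, VANGL1), beside 33.3% of all tested genes. The CPM values of the groups did not overlap for 7 of the 9, beside 43.9% of all tested genes. ROR2 is among the 7 although it passed the filter on low counts only through the control libraries, which favours such a separation. The median log2 fold change of the 9 was -0.05 and that of all tested genes 0.02.

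**Figure D1:**
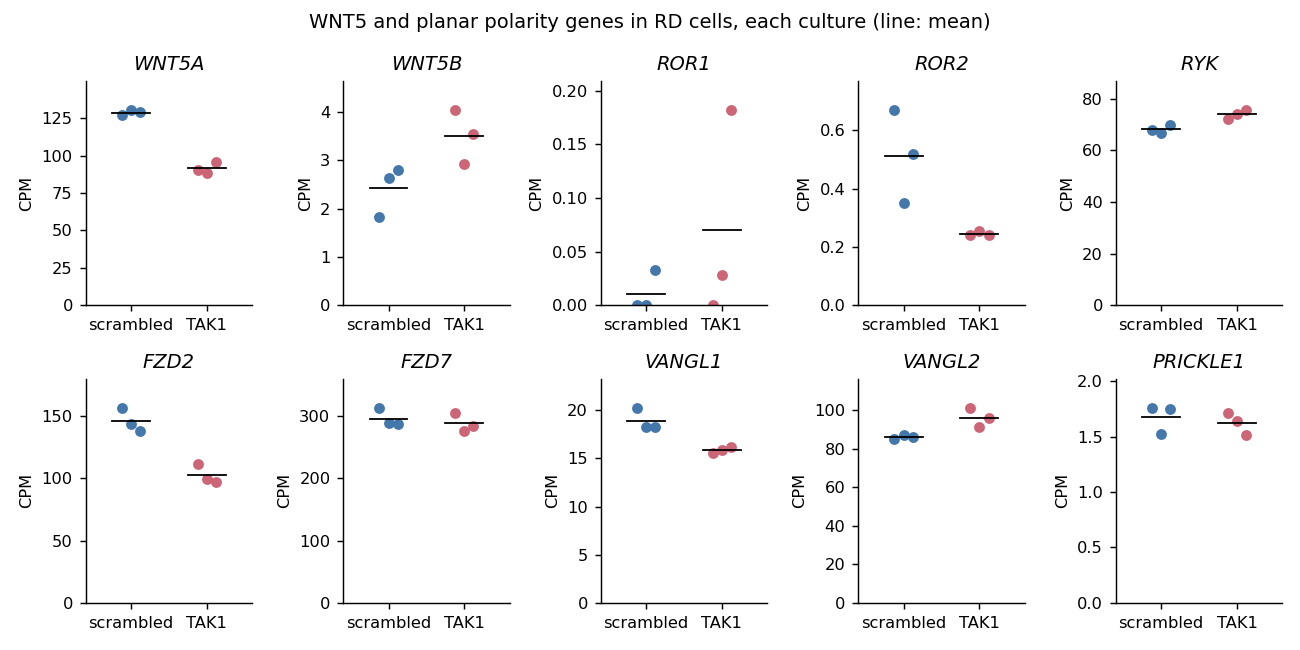
Level of each member in CPM (linear axis from 0, a separate scale for each gene) in the 3 scrambled shRNA cultures (blue) and the 3 TAK1 shRNA cultures (red); points are single cultures and lines are group means. The groups lie apart without overlap for WNT5A, WNT5B, ROR2, RYK, FZD2, VANGL1 and VANGL2, and overlap for ROR1, FZD7 and PRICKLE1.

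WNT5A, the main non-canonical WNT ligand, lies on the minus strand of chromosome 3 (chr3:55465715-55490539, GRCh38). It had 127, 130.4 and 129 CPM in the control replicates and 90.7, 88.7 and 95.7 CPM in the TAK1 knockdown replicates. The control values lay close together and all stood above the knockdown values. This gave a log2 fold change of -0.49 (SE 0.05, 95% interval -0.59 to -0.39, edgeR adjusted p = 2.45e-08). At 2651 to 4107 counts per library, counting error was small for this gene.

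WNT5B, the close paralog of WNT5A, lies on the plus strand of chromosome 12 (chr12:1529891-1647212). It had 1.83, 2.64 and 2.79 CPM in the control replicates and 4.04, 2.92 and 3.54 CPM in the knockdown replicates. The lowest knockdown value lay just above the highest control value, and the counts were low, at 52 to 118 per library. The log2 fold change was 0.52 (SE 0.20, 95% interval 0.11 to 0.94, edgeR adjusted p = 0.0466). The call lay close to the threshold and was lost without control replicate 1 (0.36, edgeR adjusted p = 0.216), control replicate 2 (0.59, adjusted p = 0.0659), knockdown replicate 1 (0.41, adjusted p = 0.180) or knockdown replicate 3 (0.50, adjusted p = 0.105). DESeq2 gave 0.52 with an adjusted p of 0.0662.

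The RNA for the ROR receptors, which bind WNT5A through a cysteine-rich domain, was scarce. ROR1 (chr1:63774017-64181498, plus strand) had 0, 0 and 1 counts in the control replicates and 0, 1 and 6 in the knockdown replicates. A count of 0 allows up to 3 counts for counting error alone, or 0.0952 to 0.105 CPM in the libraries with 0 counts. The gene was not tested, no fold is given, and a difference was not detectable at this depth.

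ROR2 (chr9:91563091-91950228, minus strand), which is expressed during limb and skeletal development, had 19, 11 and 16 counts in the control replicates and 7, 9 and 8 in the knockdown replicates. These correspond to 0.668, 0.349 and 0.519 CPM against 0.239, 0.255 and 0.242 CPM, and every knockdown value lay below every control value. The log2 fold change of -1.04 (SE 0.49, 95% interval -2.05 to -0.03) was the largest among the members in size, but its edgeR adjusted p was 0.108. ROR2 passed the filter on low counts, set at 0.316 CPM, only through the control libraries, and a gene that passes in this way had to be higher in that group.

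RYK, a WNT receptor with an inactive kinase domain, lies on chromosome 3 (chr3:134065303-134250859, minus strand). Its levels were 68.0, 66.8 and 69.7 CPM in the control replicates and 72.3, 74.1 and 75.5 CPM in the knockdown replicates. The groups did not overlap, yet the log2 fold change was only 0.12 (SE 0.05, 95% interval 0.01 to 0.23, edgeR adjusted p = 0.0917). The adjusted p passed 0.05 when libraries were scaled by their totals alone (0.17, edgeR adjusted p = 0.0161), still under the fold threshold.

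FZD2 and FZD7 belong to the same subgroup of seven-pass frizzled receptors, and each is encoded by 1 exon. FZD2 (chr17:44557484-44561262, plus strand) had 156.5, 144 and 138 CPM in the control replicates and 112, 99.8 and 97.1 CPM in the knockdown replicates. Every knockdown culture lay below every control culture, and replicate 1 was the highest of its group in both. Its log2 fold change was -0.51 (SE 0.06, 95% interval -0.63 to -0.39, edgeR adjusted p = 1.55e-07).

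FZD7 (chr2:202033855-202038441, plus strand), known as the satellite cell receptor for a non-canonical WNT ligand, had 313, 288 and 287 CPM in the control replicates and 305, 276 and 284 CPM in the knockdown replicates. Its groups overlapped. The log2 fold change was -0.04 (SE 0.05, edgeR adjusted p = 0.605), with a 95% interval of -0.14 to 0.06 that does not reach the fold threshold of 0.25 on either side. Its sign turned with 1 other scaling and without control replicate 1, at values of at most 0.01.

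The VANGL proteins are four-pass membrane proteins at the centre of planar polarity complexes. VANGL1 (chr1:115641970-115698224, plus strand) had 20.2, 18.3 and 18.2 CPM in the control replicates and 15.6, 15.9 and 16.2 CPM in the knockdown replicates. The groups did not overlap, and the log2 fold change was -0.25 (SE 0.08, 95% interval -0.42 to -0.08, edgeR adjusted p = 0.0236). Unrounded, this value of -0.2498 fell just short of the fold threshold, so VANGL1 was not called, although 7 of 13 alternative settings put it past both thresholds. Its adjusted p rose above 0.05 without control replicate 1 (-0.20, edgeR adjusted p = 0.125), without knockdown replicate 1 (adjusted p = 0.0511) and with scaling by library totals alone (adjusted p = 0.0664).

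VANGL2 (chr1:160400564-160428670, plus strand), the better known paralog from neural tube closure, had 84.8, 86.8 and 86.1 CPM in the control replicates and 101, 91.0 and 95.7 CPM in the knockdown replicates. All knockdown values were above all control values. The log2 fold change was 0.16 (SE 0.05, 95% interval 0.05 to 0.27, edgeR adjusted p = 0.0215), below the fold threshold. The adjusted p stayed under 0.05 in only 1 of the 6 fits that left out a culture, the one without knockdown replicate 2.

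PRICKLE1 (chr12:42456757-42590355, minus strand), a cytoplasmic LIM-domain partner of the VANGL proteins, had 1.76, 1.52 and 1.75 CPM in the control replicates and 1.71, 1.64 and 1.51 CPM in the knockdown replicates. The groups overlapped and the log2 fold change was -0.05 (SE 0.24, 95% interval -0.55 to 0.45, edgeR adjusted p = 0.905). The interval spans the fold threshold in both directions, so a change of that size was not detectable at 48 to 58 counts per library. Exons of PRICKLE1 overlap 2 genes on the opposite strand, 1 of which is PPHLN1. The use of strand in counting is not given in the sources used here, so part of these reads may belong to those genes.

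**Figure D2:**
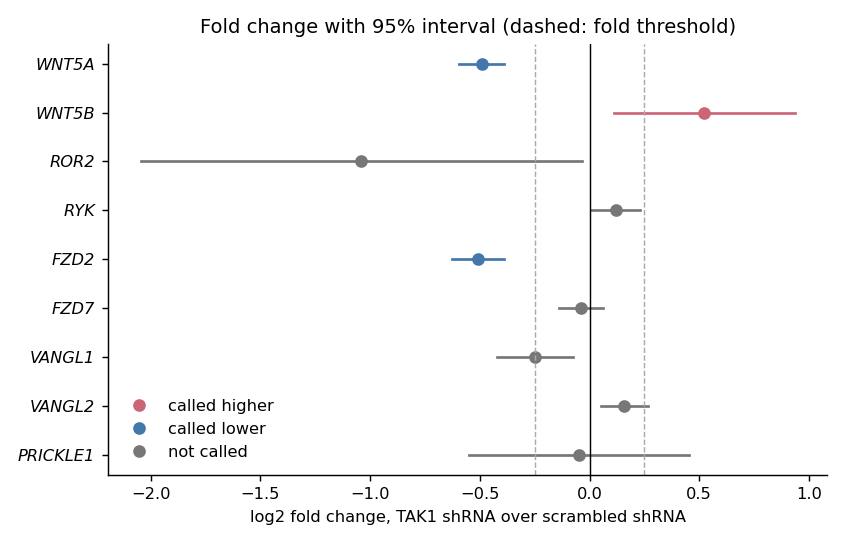
Log2 fold change of TAK1 shRNA over scrambled shRNA for the 9 tested members (points) with 95% intervals from edgeR (lines); dashed lines mark the fold threshold of 0.25 in each direction. WNT5B (red) was called higher and WNT5A and FZD2 (blue) lower, VANGL1 lies on the dashed line, and the intervals of WNT5B, ROR2 and PRICKLE1 are the widest.

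Levels between genes were compared as CPM per kilobase of the canonical transcript. In control cultures the order was FZD7 (64.5 ± 3.21, SD, n = 3), FZD2 (38.7 ± 2.50), RYK (22.4 ± 0.482), WNT5A (22.1 ± 0.303), VANGL2 (16.0 ± 0.186), VANGL1 (2.18 ± 0.132), WNT5B (1.08 ± 0.231), PRICKLE1 (0.285 ± 0.0227), ROR2 (0.123 ± 0.0384) and ROR1 (0.00185 CPM per kilobase). Frizzled receptors thus stood at the top and the ROR receptors at the bottom. RYK and WNT5A overlapped over the control replicates, whereas all other neighbours in this order did not. In TAK1 knockdown cultures WNT5A (15.7 ± 0.618) ranked below VANGL2 (17.9 ± 0.932), and the rest of the order was the same. The place of RYK depends on the length used: with the length of all annotated exons, a measure chosen after the values were seen, RYK ranked 5 and WNT5A 3 in the control cultures.

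WNT5A held the largest share of the WNT ligand RNA in every library. Of the summed per-length level of all 19 WNT genes, WNT5A held 61.6%, 64.7% and 61.2% in the control replicates and 49.6%, 52.5% and 55.3% in the knockdown replicates. The means were 62.5 ± 1.92% and 52.5 ± 2.86% (SD, n = 3), without overlap. The share of WNT5B was 3.06 ± 0.643% in control and 5.20 ± 0.636% in knockdown cultures, also without overlap. Because WNT5A makes up most of the sum, the share of WNT5B also rises when WNT5A falls. The level of WNT5B itself was 1.08 ± 0.231 in control and 1.56 ± 0.251 CPM per kilobase in knockdown cultures. Its call was lost in 5 of 13 alternative fits. The summed level of the family was lower in every knockdown culture, at 29.9 ± 1.24 against 35.3 ± 0.829 CPM per kilobase. The other 17 ligands together were at 12.2 ± 1.01 in control and 12.7 ± 1.19 CPM per kilobase in knockdown cultures, less than their SDs apart.

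Among the 10 frizzled receptors, FZD2 and FZD7 together held most of the per-length level. The share of FZD2 was 32.1%, 31.9% and 31.2% in the control replicates and 24.3%, 23.9% and 22.9% in the knockdown replicates. That of FZD7 was 53.0 ± 0.432% in control and 54.8 ± 0.398% in knockdown cultures (SD, n = 3), and the pair held 84.8 ± 0.216% and 78.5 ± 0.436%. No groups overlapped in these shares, while the summed level of the family did overlap, at 122 ± 6.41 in control and 115 ± 5.90 CPM per kilobase in knockdown cultures. A share also moves when other genes of the family move. The level of FZD7 itself overlapped, at 64.5 ± 3.21 in control and 62.9 ± 3.18 CPM per kilobase in knockdown cultures. The other 8 receptors summed to 18.6 ± 0.759 in control and 24.7 ± 0.811 CPM per kilobase in knockdown cultures. Over the 8 family values compared (the share of each member, of both members and the family sum, for WNT and FZD genes), the exact two-sided permutation p was 0.1 for 7 and 0.3 for the sum of the frizzled receptors, and Benjamini-Hochberg adjustment gave 0.114 for the 7. With 3 against 3 samples, 0.1 is the smallest p possible, so no such value can pass 0.05.

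**Figure D3:**
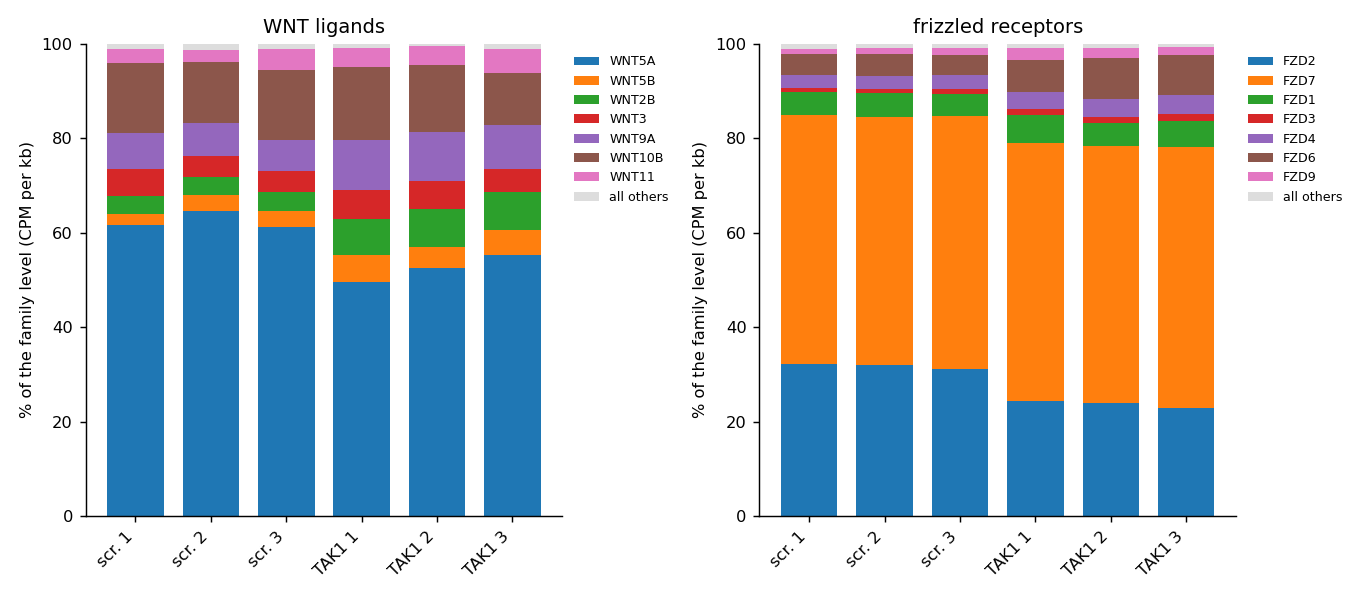
Share of each gene in the summed level (CPM per kilobase of the canonical transcript) of the 19 WNT ligands (left) and the 10 frizzled receptors (right) in each culture; each bar is 1 culture and adds up to 100%, and genes with under 1% in both groups are grouped in grey. WNT5A and FZD2 take up smaller shares in the 3 TAK1 shRNA cultures than in the 3 scrambled shRNA cultures, while FZD7 stays near 53% to 55%.

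The ratio of paralogs within a culture does not depend on how libraries are scaled. WNT5A had 69.4, 49.5 and 46.3 counts for each WNT5B count in the control replicates and 22.5, 30.4 and 27 in the knockdown replicates, a log2 difference of -1.04. For FZD2 over FZD7, the ratios were 0.5003, 0.4998 and 0.481 in control and 0.367, 0.361 and 0.342 in knockdown cultures, a log2 difference of -0.47. The ratio of VANGL1 to VANGL2 was 0.238, 0.210 and 0.212 in control and 0.154, 0.174 and 0.169 in knockdown cultures, a log2 difference of -0.41. All 3 ratios were lower in every knockdown culture than in any control culture. The exact two-sided permutation p was 0.1 for each, also after Benjamini-Hochberg adjustment over the 3 ratios, which is the smallest value that 3 against 3 samples allow. The ratio of ROR1 to ROR2 was not computed, since 3 libraries held 0 counts of ROR1. WNT5A and VANGL1 were lower, and WNT5B and VANGL2 higher, in every knockdown culture than in any control culture. The ratios of these 2 pairs therefore had to separate by group and add no support of their own. FZD2 was at 138 to 156.5 CPM in control and 97.1 to 112 CPM in knockdown cultures, while FZD7 stayed within 276 to 313 CPM. With these ranges the ratio of FZD2 to FZD7 also had to separate, and it adds no support either. Neither VANGL gene was called, since each missed the fold threshold (edgeR adjusted p = 0.0236 and 0.0215).

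To place the members in their pathway, 75 further genes in 7 lists were examined, of which 55 were tested. Of these, 15 were called higher, 6 lower and 34 were not called, that is 38.2% called beside 23.1% of all tested genes. The median log2 fold change of the 55 was 0.12, against 0.02 for all tested genes. The lists were chosen with earlier results of these data known, so neither difference can serve as support. With scaling by library totals alone, 62.9% of the calls among all genes were higher rather than 51.0%, so the balance of directions depends on scaling.

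Of the other 8 frizzled receptors, 7 were tested. FZD6, which acts in planar polarity of hair and skin, was higher (log2 fold change 0.74, edgeR adjusted p = 7.48e-08), at 18.6 to 21.5 CPM in control and 30.6 to 36.0 CPM in knockdown cultures. FZD9 (0.64), FZD3 (0.45), known for axon guidance, and FZD4 (0.39), the Norrin receptor, were also called higher, and 0 were called lower. Over all tested genes, 11.8% were called higher and 11.3% lower. The median of the list was 0.39. The direction of these 4 receptors was opposite to that of FZD2. Their per-length levels were lower than that of FZD2 in both groups, with FZD6 at 5.43 ± 0.407 in control and 9.07 ± 0.761 CPM per kilobase in knockdown cultures (SD, n = 3).

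Of the other 17 WNT ligands, 6 had enough counts to be tested. WNT2B was called higher (log2 fold change 0.78, edgeR adjusted p = 5.23e-08), from 13.9 to 16.6 CPM in control to 25.5 to 26.2 CPM in knockdown cultures. WNT9A was also called higher (0.29, edgeR adjusted p = 0.0348), a call that was lost without control replicates 2 or 3 or knockdown replicates 1 or 2, at 0.22 to 0.29. It was also lost with DESeq2 (0.28, adjusted p = 0.0506) and, in edgeR, with no filter on low counts (0.28, adjusted p = 0.0568). No other WNT ligand was called. The list had a median of 0.04.

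Among 12 other core planar polarity genes, 11 were tested, with a median of 0.05. The atypical cadherins CELSR3 (log2 fold change 0.45, edgeR adjusted p = 0.00349) and CELSR2 (0.36, adjusted p = 0.000148), which link polarity complexes across neighbouring cells, were called higher. DVL1, 1 of the Dishevelled adaptors below the frizzled receptors, was called higher at 0.25 (edgeR adjusted p = 0.0018). Its call was lost in 6 of 13 alternatives: without control replicate 1 (0.23) or knockdown replicate 1 (0.18), and by falling just under the fold threshold with DESeq2 (0.2475), relative log expression scaling (0.2472), no filter on low counts (0.2455) or the replicate block (0.2495). None of the 11 was called lower, beside 11.3% of all tested genes. DVL3, SCRIB and PTK7, which were expressed at 207 to 243 CPM, were not called, at -0.03, 0.02 and 0.04.

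All 10 planar polarity effectors were tested, with a median of 0.14. The formin DAAM1, which connects Dishevelled to RHOA, was called higher (log2 fold change 0.33, edgeR adjusted p = 7.81e-05), as was INTU (0.31, adjusted p = 0.00579), an effector that also acts in primary cilium formation and whose call was lost without control replicate 3 (0.24). The GTPase genes RAC1 (-0.27, edgeR adjusted p = 2.58e-05) and RHOA (-0.26, adjusted p = 2.43e-05) were called lower, near the fold threshold. RHOA was no longer called without knockdown replicate 1 (-0.24) or with upper-quartile scaling (-0.2451), and both lost the call with scaling by library totals alone (-0.21 for RHOA and -0.22 for RAC1).

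Of the 4 genes of the Fat and Dachsous system, which gives a long-range direction to planar polarity, 2 were tested. The giant cadherin DCHS1 was called lower (log2 fold change -0.53, edgeR adjusted p = 5.79e-09), at 163 to 174 CPM in control and 110 to 119 CPM in knockdown cultures. FJX1, related to the Golgi kinase Four-jointed, was called higher (0.31, adjusted p = 0.000438), though not without knockdown replicate 1 (0.22).

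Of 14 regulators of WNT secretion and surface binding, 9 were tested, with a median of 0.10. PORCN, the enzyme that attaches the lipid to WNT proteins, was called higher (log2 fold change 0.48, edgeR adjusted p = 0.00554). MCAM, reported as a WNT5A receptor, was called lower (-0.36, adjusted p = 0.000252), as was CTHRC1 (-0.31, adjusted p = 4.96e-05), a secreted protein known to help WNT ligands bind frizzled and ROR2. WLS, the carrier of WNT proteins to the surface, was not called (0.10, edgeR adjusted p = 0.120).

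The 10 genes of the WNT calcium branch were all tested, with a median of 0.10. NFATC2 (log2 fold change 0.99, edgeR adjusted p = 0.00454), a calcium-regulated transcription factor, was called higher from 28 to 31 counts per library in control to 63 to 66 in knockdown cultures. The kinase gene CAMK2B was called higher (0.67, adjusted p = 1.37e-07), while its paralog CAMK2D was called lower (-0.36, adjusted p = 7.64e-06). Thus, 2 genes were called higher and 1 lower, with 7 not called.

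**Figure D4:**
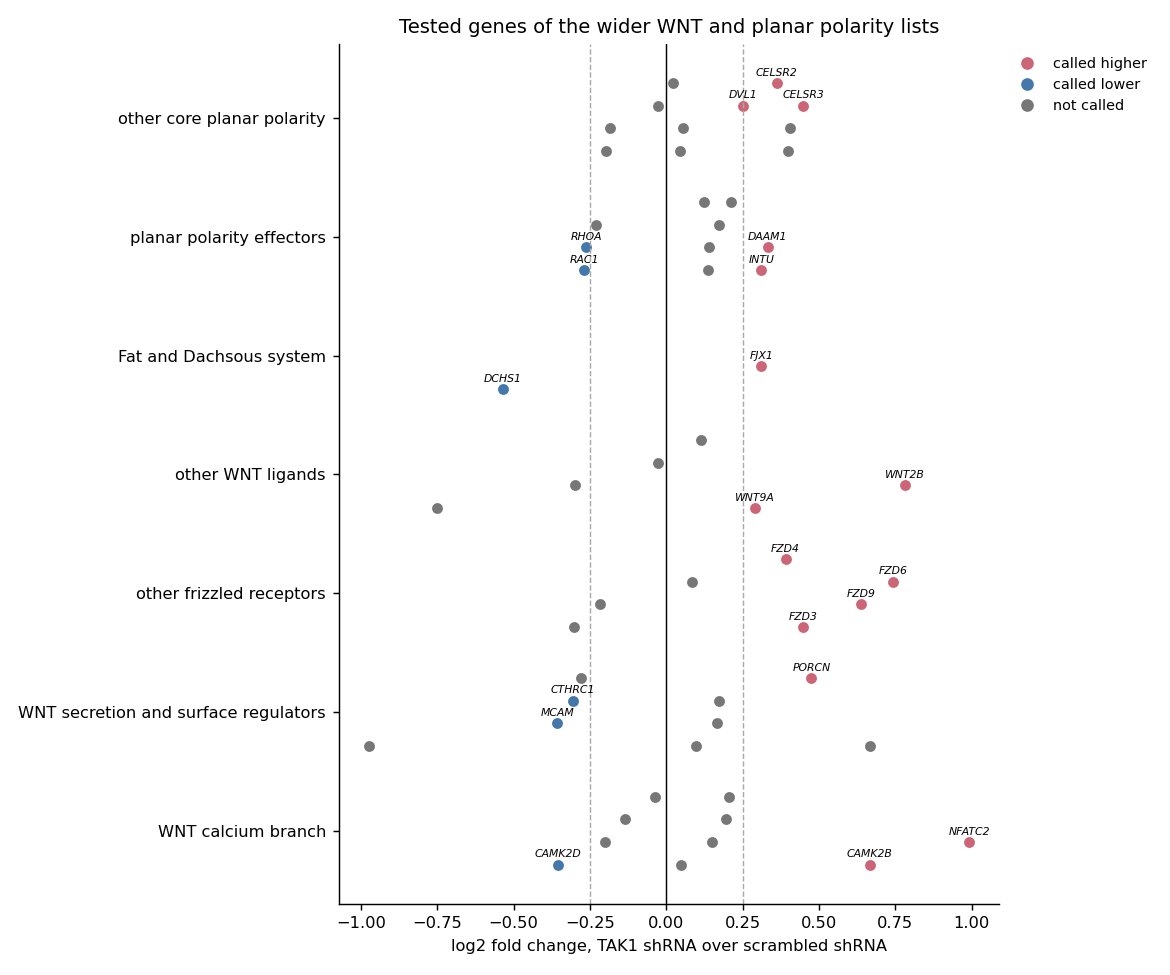
Log2 fold change of TAK1 shRNA over scrambled shRNA for the 55 tested genes of the 7 wider lists; each point is 1 gene, shifted vertically for legibility, called genes are named (red higher, blue lower) and dashed lines mark the fold threshold of 0.25. Among the other frizzled receptors, 4 of 7 tested genes were called higher and 0 lower, beside 11.8% and 11.3% of all tested genes.

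Some of the muscle markers also differed between the groups, in both directions. Of the 7 muscle and rhabdomyosarcoma markers, MYOD1 (log2 fold change 0.37) and MYOG (0.27), both factors of muscle differentiation, were called higher, and CHRNA1 (-0.40), a subunit of the muscle acetylcholine receptor, was called lower by edgeR. DES (log2 fold change 0.09) and PAX7 (0.14) were not called. The summed level of the list was 1784 to 1804 CPM in control and 1685 to 1752 CPM in knockdown cultures. CHRNA1, at means of 921 and 700.3 CPM, set the direction of that sum, opposite to the sign of the other 4 tested markers. Of 5 epithelial markers, KRT18 was tested and lower (-1.09), the summed level of the list was 52.5 to 59.8 CPM in control and 25.5 to 28.1 CPM in knockdown cultures, and CDH1 and KRT14 were at 0. The 3 endothelial and 4 blood markers had 0 tested genes and sums of at most 0.162 and 0.106 CPM. The part of these shifts in the changes of the WNT5 and planar polarity genes was not tested.

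**Figure D5:**
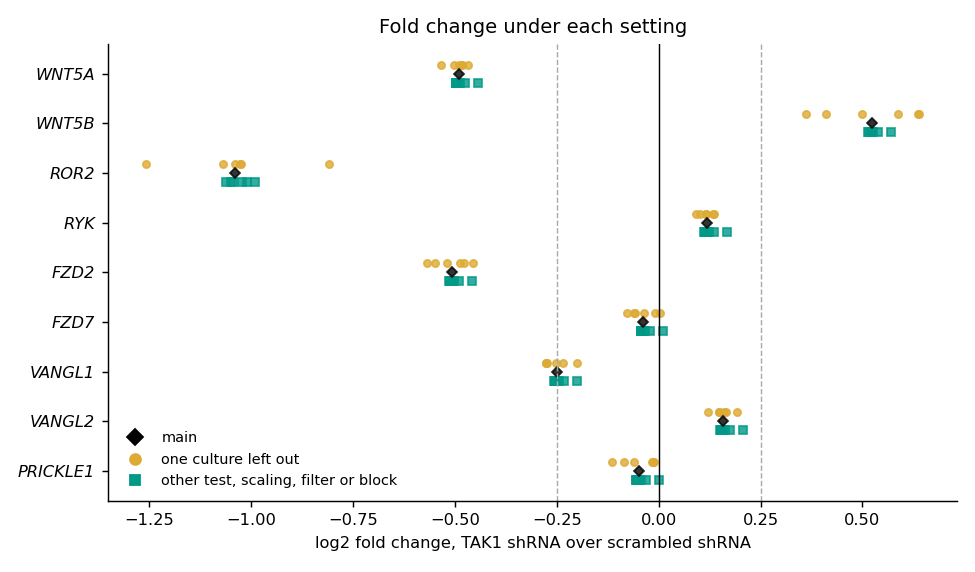
Log2 fold change of each tested member in the reported fit (black diamonds), with 1 culture left out (yellow circles) and with another test, scaling, filter or the replicate block (green squares); dashed lines mark the fold threshold of 0.25. WNT5A and FZD2 stay below -0.25 in every fit, VANGL1 straddles the threshold, and WNT5B ranges from 0.36 to 0.64.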

How the data were processed

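mRNA-seq was performed on 3 RD cultures with scrambled shRNA and 3 with TAK1 shRNA. The authors deposited raw read counts per gene, without normalization, from 75-base paired-end reads. Per the paper and the submitters' processing notes, bases were called with CASAVA, low-quality and adaptor reads were removed, and STAR aligned the rest to GRCh38; the counter, annotation release and use of strand are not given in the sources used here. Groups and replicate numbers came from the sample titles. Total counts per library were 28839898 to 34469323, and tested genes held at least 99.9% of them. Replicates of a group differed by more than sampling noise (chi-square per degree of freedom 2.8 to 7.94).

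Counts were analysed with edgeR 4.0.16 in R 4.3.3: default expression filter (10 counts at the median library size), TMM scaling (trimmed mean of M-values), the quasi-likelihood F-test, p adjusted by Benjamini-Hochberg for 15935 genes, and thresholds of 0.05 for the adjusted p and 0.25 for the size of the log2 fold change. The SE of a log2 fold change was obtained by dividing it by the root of its F value. The common biological coefficient of variation was 5.67%, which exceeds counting error except in genes with low counts such as WNT5B, ROR1, ROR2 and PRICKLE1. Paralog ratios and family shares were compared with exact two-sided permutation tests (scipy 1.17.1). Positions and transcript lengths are from GENCODE 44. The script was tested on simulated data. Alternatives were DESeq2 1.42.0, 3 other scalings, 2 other filters, 2 other fold thresholds, a replicate block and leaving out each culture.

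The members and the wider lists were chosen with earlier results of these data known. The text names all members, MAP3K7, the markers by their lists, and of each wider list the called genes, at most 5 by absolute log2 fold change. DVL3, SCRIB, PTK7 and WLS were named after their values were seen.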

Additional observations from a re-analysis of the deposited data

How the results depend on the processing

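MAP3K7, WNT5A and FZD2 kept their calls in all 13 alternative fits (log2 fold change -1.36 to -1.25, -0.53 to -0.44 and -0.57 to -0.46). The number of members called higher was 1 as reported, 0 with DESeq2, 2 with no fold threshold and 0 to 1 with 1 culture left out; the number called lower was 2, with 1 at a fold threshold of 0.5 (FZD2, as WNT5A lay under it), 3 with DESeq2, relative log expression scaling, no filter on low counts or no fold threshold (VANGL1 added), and 2 to 3 with 1 culture left out. At a fold threshold of 0.5, 5 wider pathway genes were called higher and 1 lower, against 15 and 6 as reported, with 13 to 16 and 6 to 7 when 1 culture was left out. FZD7 reversed with scaling by library totals alone (0.0108) and without control replicate 1 (0.0039), with a range of -0.0783 to 0.0039 when 1 culture was left out. The cause was not tested. Of the 21 called wider genes, 15 kept their call in all 13 alternatives, 6 lost it in some and 0 reversed. The log2 differences of the paralog ratios stayed between -1.15 and -0.86 for WNT5A to WNT5B, between -0.49 and -0.44 for FZD2 to FZD7 and between -0.44 and -0.35 for VANGL1 to VANGL2 when 1 culture was left out.

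Replicate numbers are shared between the groups. Deviations from the group mean correlated at 0.092, 0.056 and 0.035 for same-numbered cultures and at -0.099 to 0.049 for the others. With 3 cultures per group these values cannot decide whether the numbers pair the cultures. With the replicate block, 1942 genes of all tested were higher and 1848 lower, against 1879 and 1805; the members gave 1 higher and 2 lower as before, the wider genes 15 and 7, and DVL1 lost its call (0.2495). For the paralog ratios, the block gave an exact p of 0.25, the smallest that 3 pairs allow. Control replicates 1 and 2 correlated best with the knockdown culture of their own number, and control replicate 3 with knockdown replicate 2 (0.049).

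Low counts limit ROR1, ROR2, WNT5B and PRICKLE1. ROR2 was left out by the filter that asks for 10 counts in every library. The ratio of ROR1 to ROR2 was run under no setting because of the 0 counts.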

Other observations

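CDC42, the GTPase gene usually named beside RHOA and RAC1 in planar polarity, was listed at only 1.40 to 2.44 CPM, whereas RHOA was at 415 to 516 CPM and RAC1 at 316 to 394 CPM over the 6 libraries. These values are printed as counted, and they were noticed after the values were seen. The log2 fold change of CDC42 was -0.23 (SE 0.26, edgeR adjusted p = 0.537), and its groups overlapped. How the low count of CDC42 arose was not tested.

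DVL2, another Dishevelled adaptor, had 91.5 to 93.2 CPM in control and 76.4 to 86.5 CPM in knockdown cultures, a log2 fold change of -0.18 (SE 0.05, edgeR adjusted p = 0.0104) below the fold threshold. DVL1 moved the other way (0.25), and DVL3 was at -0.03. CELSR1, the third CELSR cadherin, had a log2 fold change of 0.40 (SE 0.18) with an edgeR adjusted p of 0.0846, and its groups overlapped. DAAM2, the paralog of DAAM1, was at 0.14 (SE 0.05, edgeR adjusted p = 0.0386). INVS, another gene of planar polarity and cilia, was at 0.21 (SE 0.07, adjusted p = 0.022). These genes were named after their values were seen.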
